A study of Homo sapiens with 9 samples.

Results

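Caspases are cysteine proteases that cut their substrates after aspartate, and APAF1 is the scaffold on which one of them is activated. The transcripts of 8 genes were followed here: the initiator caspases CASP2, CASP8, CASP9 and CASP10, the executioner caspase CASP6, the inflammatory caspases CASP1 and CASP4, and APAF1. They were chosen by gene symbol from the 60605 genes of the deposited table, each symbol matched 1 entry, and all 8 passed the filter on low values, a mean of at least 0.1 FPKM (fragments per kilobase of exon, scaled to depth) over the 9 libraries. RNA was sequenced from TE13 cells, a line of human esophageal squamous cell carcinoma (ESCC), that had received a control siRNA or either of the siRNAs against PARylator, siRNA.1 and siRNA.2. PARylator is the study's name for the long noncoding RNA LINC00885, and the knockdown was made to assess changes of the transcriptome. Each condition had 3 libraries, described as biological replicates of this 1 line, and no other agent or genotype distinguished the groups.

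In the intrinsic pathway of apoptosis, cytochrome c released from mitochondria binds APAF1, which assembles into the apoptosome and recruits and activates CASP9. In the extrinsic pathway, death receptors recruit CASP8 and CASP10 through the adaptor FADD, and executioner caspases such as CASP6 then dismantle the cell, for instance by cutting nuclear lamins. CASP1 and CASP4 belong instead to inflammation, where inflammasomes activate CASP1 to mature interleukin cytokines and CASP4 senses bacterial lipopolysaccharide in the cytosol. All caspases are made as inactive precursors, so the RNA levels given here are not protease activity, which RNA-seq does not measure.

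The promoters of 4 genes are shown because their transcripts differed between conditions in the tests given further on. CASP9, APAF1 and CASP6 were lower with both siRNAs, while CASP4 was higher with siRNA.1. The sequences are those of RefSeq on GRCh38.p14, run from 250 bases before to 50 bases after the annotated start, and are written 5′ to 3′ on the strand of the gene. Capitals mark the letters GGGGCGGGG, the GC box, on either strand. The CASP9 window was chr1:15524166-15524465 on the minus strand, the APAF1 window chr12:98645040-98645339 on the plus strand, the CASP6 window chr4:109703396-109703695 on the minus strand and the CASP4 window chr11:104968525-104968824 on the minus strand.
CASP9: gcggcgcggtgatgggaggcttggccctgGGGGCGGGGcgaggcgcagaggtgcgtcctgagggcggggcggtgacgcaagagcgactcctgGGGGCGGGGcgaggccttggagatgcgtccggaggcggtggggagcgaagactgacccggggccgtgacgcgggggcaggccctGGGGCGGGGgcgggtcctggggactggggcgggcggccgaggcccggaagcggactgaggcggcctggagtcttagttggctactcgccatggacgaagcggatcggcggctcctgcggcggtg
APAF1: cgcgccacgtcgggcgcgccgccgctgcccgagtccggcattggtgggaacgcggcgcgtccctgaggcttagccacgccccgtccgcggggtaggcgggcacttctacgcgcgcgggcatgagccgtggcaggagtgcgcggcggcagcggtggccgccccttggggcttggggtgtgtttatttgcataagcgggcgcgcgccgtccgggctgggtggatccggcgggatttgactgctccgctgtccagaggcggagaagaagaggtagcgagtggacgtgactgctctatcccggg
CASP6: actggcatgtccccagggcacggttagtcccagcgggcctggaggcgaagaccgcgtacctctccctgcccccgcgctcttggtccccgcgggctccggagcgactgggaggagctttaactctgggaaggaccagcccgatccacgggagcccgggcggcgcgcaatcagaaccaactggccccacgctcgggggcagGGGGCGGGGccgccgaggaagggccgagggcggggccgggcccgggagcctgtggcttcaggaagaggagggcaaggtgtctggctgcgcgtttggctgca
CASP4: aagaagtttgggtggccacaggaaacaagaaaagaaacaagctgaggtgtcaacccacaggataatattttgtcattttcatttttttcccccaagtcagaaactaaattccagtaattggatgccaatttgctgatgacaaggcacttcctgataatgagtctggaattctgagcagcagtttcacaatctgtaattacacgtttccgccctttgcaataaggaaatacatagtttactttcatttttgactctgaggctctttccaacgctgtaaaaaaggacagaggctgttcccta

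The CASP9 window held 3 copies of the GC box, the CASP6 window held 1, and the windows of APAF1 and CASP4 held none, while 15.7% of all 35116 promoters in the RefSeq table held at least 1. The CASP9, CASP6 and APAF1 windows were GC-rich, at 76.0%, 72.0% and 71.3% GC against a median of 58.7% over all promoters. The CASP4 window differed from them with 39.7% GC. None of these 4 windows held the interferon-response core (GAAA, any 2 bases, GAAA), the STAT element TTCNNNGAA or the amino acid response element TGATGCAA, letters found on either strand in 3.57%, 7.66% and 0.866% of all promoters. Of the 8 genes, 6 had entries in the promoter table, 10 in all. A further CASP9 start held 4 GC boxes, 1 of the CASP2 starts held 1 GC box, and 1 of the CASP8 starts held 1 STAT element and 1 interferon-response core. CASP1 and CASP10 had no entry. A match of letters is a description of the window and not evidence of a bound site.

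Depth was 15337917 to 17899074 counts for the controls, 15374616 to 17762752 for siRNA.1 and 19213164 to 22559998 for siRNA.2. Mitochondrially encoded genes took 7.46% to 7.66% of them in the controls, 4.99% to 5.06% for siRNA.1 and 5.54% to 5.56% for siRNA.2. The targeted gene LINC00885 was counted 6, 7 and 12 times in the controls, 4, 5 and 2 times with siRNA.1 and 2, 0 and 4 times with siRNA.2. Its log2 difference from control siRNA was -1.21 (SE 0.95, adjusted p = 0.376) with siRNA.1 and -2.33 (SE 1.01, adjusted p = 0.0659) with siRNA.2 by edgeR's quasi-likelihood test, so a knockdown was not resolved by this test at these counts. In FPKM every knockdown library was below every control library. The study measured the knockdown by qPCR, which is not examined here. All 8 squamous markers exceeded 1 FPKM in the control libraries, with a sum of 580 to 605 FPKM there, 375 to 393 for siRNA.1 and 407 to 421 for siRNA.2. That sum rests mostly on SFN (296 to 311, 179 to 183 and 180 to 185 FPKM) and KRT5 (134 to 151, 36.8 to 42.2 and 53.8 to 59.1). SOX2 (10.8 to 12.7, 2.74 to 3.72 and 6.23 to 6.78) and TP63 (21.1 to 22.0, 19.1 to 20.9 and 18.4 to 19.0) were also lower in every knockdown library. KRT6A (77.4 to 79.6, 99.5 to 103 and 114 to 122) and DSG3 (9.58 to 11.2, 15.3 to 16.1 and 11.6 to 13.8) were higher with the siRNAs. PKP1 was below the controls with siRNA.2 in every library, and KRT14 overlapped the controls with both. The 8 blood cell markers summed to 0.64 to 1.27, 3.87 to 4.50 and 3.83 to 4.80 FPKM, mostly LYZ in the knockdown libraries, with MS4A1 at 0 and PTPRC at no more than 0.22 FPKM in any library. The 6 fibroblast markers summed to 2.23 to 2.49, 1.46 to 1.64 and 1.5 to 1.72 FPKM and the 4 endothelial markers to 1.2 to 1.54, 0.63 to 0.89 and 0.42 to 0.55. The part of these shifts in the changes described for the caspases was not tested. In bulk RNA of 1 cell line, fewer cells that express a gene and less of its RNA per cell cannot be told apart. The calls on the 8 genes were the same with the mitochondrially encoded genes left out.

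Most of the changes among the 8 genes were decreases. With siRNA.1, APAF1, CASP9, CASP6 and CASP1 were lower than with control siRNA, CASP4 was higher, and CASP2, CASP8 and CASP10 did not pass the test. With siRNA.2, APAF1, CASP9 and CASP6 were lower and the other 5 genes did not pass. The test was edgeR's quasi-likelihood test with Benjamini-Hochberg adjustment over 21395 genes and a threshold of 0.05. It called 30.3% of all genes with siRNA.1, 15% higher and 15.2% lower, and 30.9% with siRNA.2, 15.8% higher and 15.1% lower. The 3 genes called lower with both siRNAs compare with 10.2% of all genes, and none of the 8 was higher with both, against 11.1% of all genes. With 8 genes these shares are coarse. The median log2 difference of the 8 genes was -0.37 for siRNA.1 and -0.32 for siRNA.2, beside medians over all genes tested of -0.00056 and 0.0040. Both comparisons use the same 3 control libraries, so they are not independent of each other. In the direct comparison of siRNA.2 with siRNA.1, CASP4 alone passed, as lower with siRNA.2, where 12.2% of all genes were called, 6.1% higher and 6.06% lower.

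**Figure D1:**
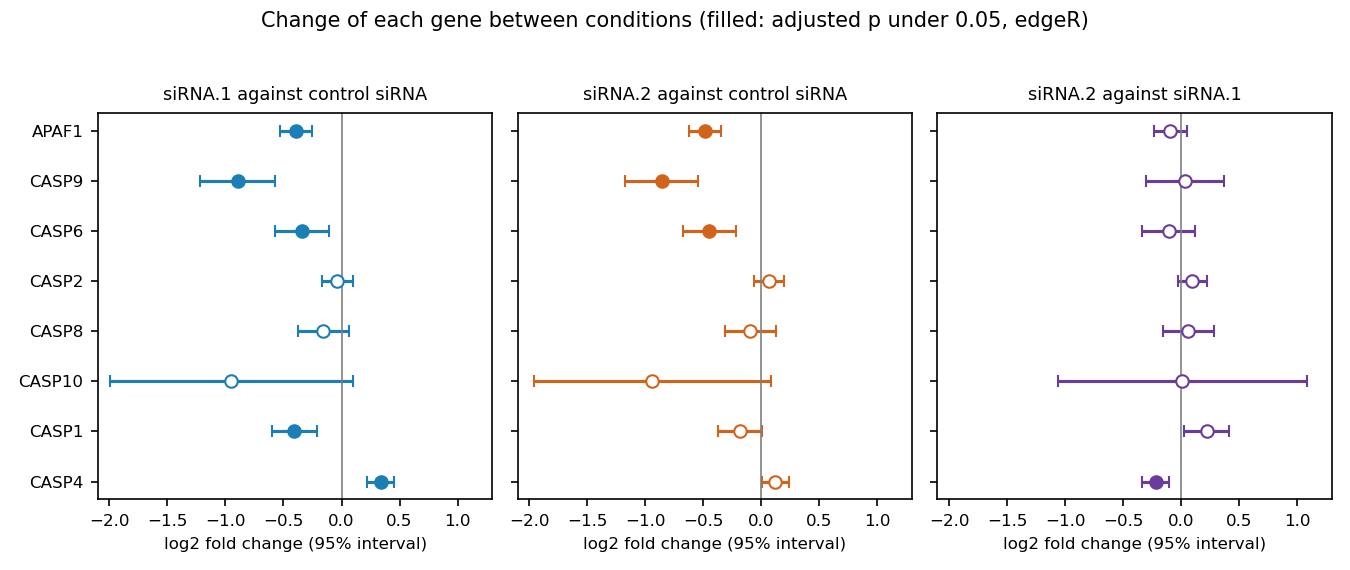
Log2 fold change (horizontal axis) of each of the 8 genes (vertical axis) in 3 panels, each siRNA against control siRNA and then siRNA.2 against siRNA.1, with 95% intervals; filled points passed the edgeR test at an adjusted p under 0.05. APAF1, CASP9 and CASP6 lay left of 0 with both siRNAs, and the CASP10 intervals, widest of the 8, crossed 0 in all 3 comparisons.

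The scaffold of the apoptosome and the caspase it activates were lower with either siRNA. CASP9, the initiator caspase activated on APAF1 (ENSG00000132906, minus strand, GRCh38 chr1:15490832-15526534), was at 1.98, 1.92 and 2.03 FPKM in the control libraries. It was at 1.22, 1.10 and 0.93 FPKM with siRNA.1 and at 0.99, 1.29 and 1.02 FPKM with siRNA.2. Every library of either siRNA was below every control library, and those of the siRNAs overlapped each other. The counts behind these levels were 158 to 191 in the control libraries, 86 to 114 for siRNA.1 and 103 to 131 for siRNA.2. CASP9 was 1.86-fold lower with siRNA.1 (log2 -0.89, SE 0.16, edgeR adjusted p = 6.02e-07) and 1.81-fold lower with siRNA.2 (log2 -0.86, SE 0.16, adjusted p = 8.95e-07), the largest decreases among the genes of the 8 that passed. Between the siRNAs the difference was 0.03 on the log2 scale with a 95% interval from -0.30 to 0.37.

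APAF1 (ENSG00000120868, plus strand, chr12:98645290-98735433) was at 8.13, 7.79 and 7.70 FPKM with control siRNA, a higher level per length than CASP9. With siRNA.1 it was at 5.99, 6.56 and 5.82 FPKM, and with siRNA.2 at 6.44, 5.02 and 5.54 FPKM. All 6 knockdown libraries lay below the control libraries, and siRNA.2 varied most, with an SD of 0.718 FPKM against 0.227 in the controls (n = 3 each). The decrease was 1.31-fold with siRNA.1 (log2 -0.39, SE 0.07, edgeR adjusted p = 3.62e-07) and 1.40-fold with siRNA.2 (log2 -0.49, SE 0.07, adjusted p = 8.06e-11). The siRNAs differed from each other by -0.09 on the log2 scale, with an interval from -0.23 to 0.05.

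CASP6, an executioner caspase that cleaves lamin A (ENSG00000138794, minus strand, chr4:109688622-109703583), was lower with both siRNAs, though less stably with siRNA.1. It was at 9.43, 10.24 and 8.83 FPKM in the control libraries, at 7.79, 7.77 and 7.34 FPKM with siRNA.1 and at 6.86, 7.07 and 7.07 FPKM with siRNA.2. The 3 conditions did not overlap. CASP6 was 1.27-fold lower with siRNA.1 (log2 -0.34, SE 0.12, edgeR adjusted p = 0.0144) and 1.36-fold lower with siRNA.2 (log2 -0.45, SE 0.12, adjusted p = 0.000597). The call with siRNA.1 was lost without control replicate 2 (adjusted p = 0.0936) and without siRNA.1 replicate 3 (adjusted p = 0.0609). The gene MCUB, at a mean of 5.56 FPKM, overlaps the end of CASP6 on the other strand by a short stretch, and whether the counting used strand is not given in the sources used here.

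The other initiator caspases did not pass the test with either siRNA. CASP2, which is activated on the PIDDosome (ENSG00000106144, plus strand, chr7:143288215-143307696), was at 7.42, 7.29 and 7.34 FPKM in the controls, at 6.96, 7.37 and 7.58 for siRNA.1 and at 7.48, 7.85 and 7.86 for siRNA.2. The siRNA.1 libraries surrounded the controls and the siRNA.2 libraries lay just above them. The log2 difference of CASP2 was -0.04 with siRNA.1 (95% interval -0.17 to 0.10, edgeR adjusted p = 0.761) and 0.06 with siRNA.2 (-0.07 to 0.19, adjusted p = 0.546).

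CASP8, the initiator of death receptor signaling (ENSG00000064012, plus strand, chr2:201233443-201287711), was at 2.33, 2.63 and 2.57 FPKM with control siRNA, at 2.11, 2.40 and 2.40 with siRNA.1 and at 2.58, 2.39 and 2.15 with siRNA.2. The conditions overlapped. Its log2 difference was -0.16 with siRNA.1 (95% interval -0.38 to 0.07, edgeR adjusted p = 0.332) and -0.09 with siRNA.2 (-0.31 to 0.12, adjusted p = 0.593).

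CASP10, the paralog of CASP8 (ENSG00000003400, plus strand, chr2:201182898-201229406), was the least abundant of the 8 genes. Its counts were 13, 23 and 20 in the controls, 5, 15 and 10 for siRNA.1 and 12, 10 and 15 for siRNA.2, equal to 0.11, 0.19 and 0.15, then 0.04, 0.13 and 0.08, then 0.08, 0.07 and 0.09 FPKM. All siRNA.2 libraries were below the controls, whereas those of siRNA.1 overlapped them. The log2 difference was -0.95 with siRNA.1 (95% interval -2.0 to 0.10, edgeR adjusted p = 0.183) and -0.94 with siRNA.2 (-1.96 to 0.08, adjusted p = 0.176). At these counts a decrease of the size seen for CASP9 could not be told from none.

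The inflammatory caspases moved in opposite directions with siRNA.1. CASP1, which matures the cytokines IL1B and IL18 (ENSG00000137752, minus strand, chr11:105025443-105035250), was at 7.49, 7.36 and 6.81 FPKM with control siRNA. It was at 4.99, 5.79 and 5.89 FPKM with siRNA.1 and at 6.45, 6.57 and 6.17 FPKM with siRNA.2. The control libraries were highest, the siRNA.1 libraries lowest, and the conditions did not overlap. CASP1 was 1.32-fold lower with siRNA.1 (log2 -0.41, SE 0.10, edgeR adjusted p = 0.000296). With siRNA.2 its log2 difference was -0.19 (SE 0.10, adjusted p = 0.143), and the siRNAs themselves did not pass the test of their difference (log2 0.22, interval 0.03 to 0.41 before adjustment, adjusted p = 0.145).

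CASP4 (ENSG00000196954, minus strand, chr11:104942866-104969366), the cytosolic sensor of lipopolysaccharide, was at 10.6, 10.2 and 10.7 FPKM with control siRNA, at 13.2, 13.4 and 13.9 with siRNA.1 and at 12.2, 11.2 and 11.1 with siRNA.2. Here the siRNA.1 libraries were highest and the controls lowest, again without overlap. CASP4 was 1.26-fold higher with siRNA.1 (log2 0.34, SE 0.06, edgeR adjusted p = 2.99e-07), while its difference with siRNA.2 was 0.12 (SE 0.06, adjusted p = 0.125). The siRNAs differed, with CASP4 lower by 0.22 on the log2 scale with siRNA.2 than with siRNA.1 (SE 0.06, adjusted p = 0.00391). That difference did not pass without siRNA.1 replicate 3 (adjusted p = 0.0512), nor in limma on log2(FPKM + 0.1) or log2(FPKM + 1) (adjusted p = 0.0863 and 0.0596).

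Over the 8 genes, FPKM ranges did not overlap between control siRNA and siRNA.1 for 5, beside 37.7% of all genes tested, and between control siRNA and siRNA.2 for 7, beside 39.6%. The exception with siRNA.2 was CASP8. For siRNA.2 and siRNA.1 the count was 3, namely CASP1, CASP4 and CASP6, beside 24.4%. Of the 7 genes separated with siRNA.2, 4 did not pass the edgeR test: CASP1, CASP4, CASP2 and CASP10.

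**Figure D2:**
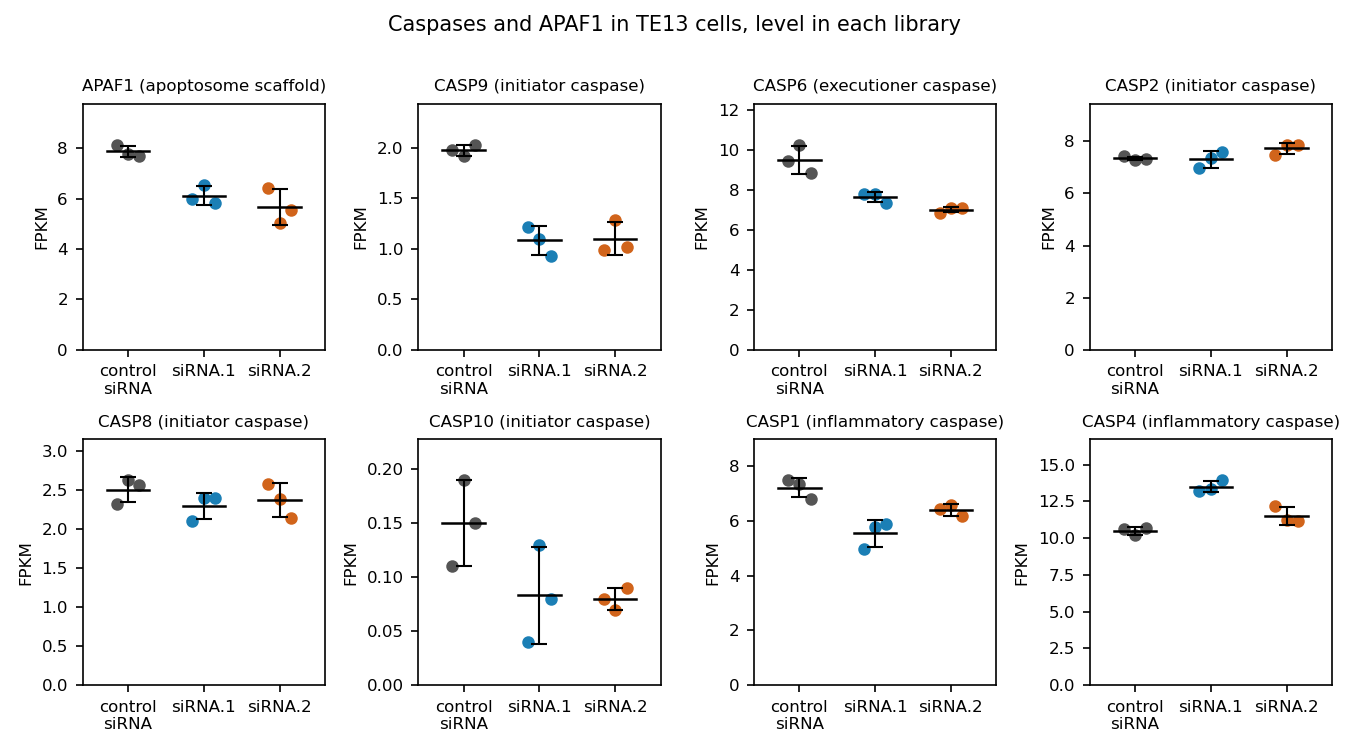
FPKM (vertical axis, from 0, with its own scale in each panel) of each of the 8 genes in every library of the 3 conditions; points are libraries, and lines and bars give mean and SD (n = 3). The CASP9 points fell from 1.92 to 2.03 in the controls to 0.93 to 1.29 in the knockdown libraries, while the CASP2 points stayed between 6.96 and 7.86 throughout.

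Ordered by FPKM, which corrects for exon length, the control cells had most of CASP4 (10.5 ± 0.269, SD, n = 3), followed by CASP6 (9.5 ± 0.708), whose range overlapped that of CASP4. APAF1 (7.87 ± 0.227) came next, then CASP2 (7.35 ± 0.0656) and CASP1 (7.22 ± 0.361), which were not separated from each other. CASP8 (2.51 ± 0.159), CASP9 (1.98 ± 0.0551) and CASP10 (0.150 ± 0.040) followed, each separated from its neighbors. CASP4 was above 84.5% of the 28065 genes with a mean FPKM above 0 in the control libraries, CASP9 above 63.0% and CASP10 above 30.5%. With siRNA.1 the order became CASP4, CASP6, CASP2, APAF1, CASP1, CASP8, CASP9 and CASP10, with CASP6 and CASP2 overlapping, as did APAF1 and CASP1. With siRNA.2 CASP2 stood second at 7.73 ± 0.217 FPKM, and CASP1 and APAF1, at 6.40 ± 0.205 and 5.67 ± 0.718, overlapped. The summed FPKM of the 8 genes ranged over 46.1 to 47.6 in the controls, 42.3 to 44.5 for siRNA.1 and 41.0 to 43.1 for siRNA.2.

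Ratios of FPKM within a library compare the RNA levels of paired genes and do not give the balance of their proteins. The ratio of CASP9 to APAF1 was 0.244, 0.246 and 0.264 in the controls, 0.204, 0.168 and 0.160 for siRNA.1 and 0.154, 0.257 and 0.184 for siRNA.2. It was lower than the controls in all siRNA.1 libraries, and siRNA.2 replicate 2 lay among the controls. The ratio of CASP1 to CASP4 averaged 0.689 ± 0.0453 in the controls, 0.411 ± 0.0298 for siRNA.1 and 0.557 ± 0.0286 for siRNA.2, without overlap between conditions. That separation follows from the levels given above, where neither gene overlapped between conditions and their orders were opposite. It is no further result. The ratio of CASP8 to CFLAR, its catalytically inactive relative that blocks activation at death receptors, was 1.48 ± 0.171, 0.965 ± 0.0538 and 0.934 ± 0.146. Every knockdown library was below every control library, and with CASP8 overlapping between conditions it was CFLAR that passed the test, as described next.

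**Figure D3:**
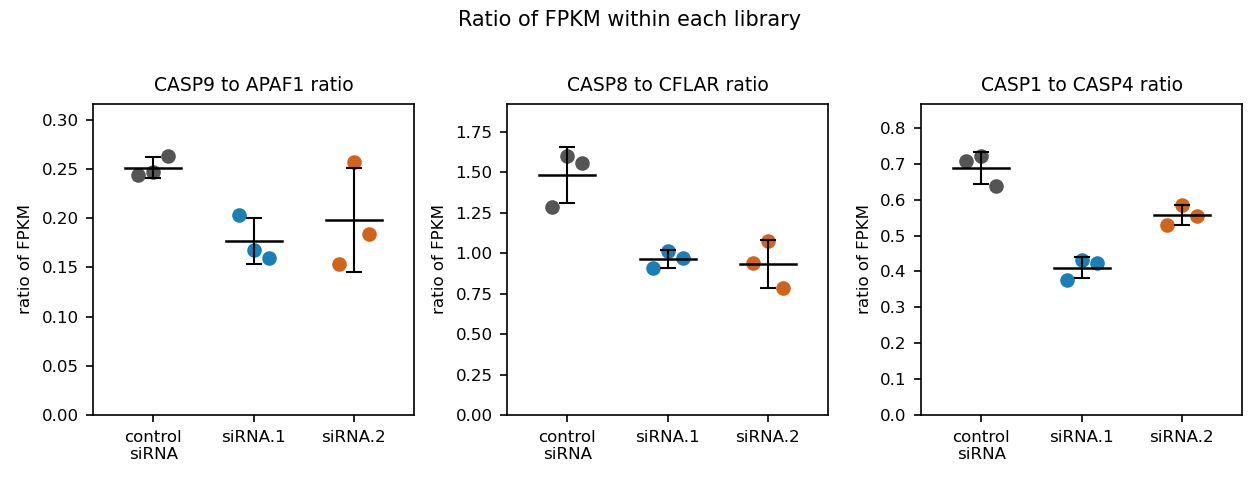
Ratio of FPKM within each library (vertical axes, from 0) for CASP9 to APAF1, CASP8 to CFLAR and CASP1 to CASP4 with control siRNA, siRNA.1 and siRNA.2; points are libraries, and lines and bars give mean and SD (n = 3). The CASP1 to CASP4 ratio separated all 3 conditions, which follows from the separate levels of each gene. For CASP9 to APAF1, 1 siRNA.2 library, at 0.257, lay among the controls.

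A list of 41 genes that activate, restrain or are cut by caspases was examined alongside. Of the 36 tested, 5 were higher and 12 lower with siRNA.1 and 9 were higher and 8 lower with siRNA.2, with median log2 differences of -0.02 and 0.0016. These shares, like those of the 8 genes, stand beside the 15% and 15.2% of all genes called higher and lower with siRNA.1 and the 15.8% and 15.1% with siRNA.2. In the direct comparison of the siRNAs 5 were higher and 5 lower, beside 6.1% and 6.06% of all genes. With both siRNAs, 4 genes were higher (XAF1, AIM2, CYCS and CFLAR) and 8 lower (IL18, BIRC3, XIAP, GSDME, RIPK1, LMNA, BIRC2 and PAK2), beside 11.1% and 10.2% of all genes.

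Among the genes of mitochondrial release, 1 of 5 was higher and 1 lower with siRNA.1, and 2 were higher with siRNA.2. CYCS, which encodes the cytochrome c that triggers the apoptosome, was at 99.8, 106 and 103 FPKM with control siRNA, at 150, 141 and 144 with siRNA.1 and at 159, 158 and 159 with siRNA.2. It was thus higher in every knockdown library, by 0.47 on the log2 scale with siRNA.1 (SE 0.04, edgeR adjusted p = 7.17e-36) and by 0.61 with siRNA.2 (SE 0.04, adjusted p = 5.68e-62), in the same libraries in which APAF1 and CASP9 were lower.

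The list of inhibitors of apoptosis and their antagonist held the largest change of any regulator, that of XAF1. With either siRNA 3 of its 6 genes were lower, namely XIAP, the direct inhibitor of CASP9, and the ubiquitin ligases BIRC2 and BIRC3, while XAF1 was higher with both. BIRC5, another member of the inhibitor family, was higher with siRNA.2 (log2 0.24, edgeR adjusted p = 3.35e-05), which made 2 of 6 higher there, and was not called with siRNA.1 (log2 0.0066, adjusted p = 0.958). XAF1, which binds XIAP, was at 2.50, 1.70 and 1.43 FPKM with control siRNA, at 6.96, 8.94 and 8.31 with siRNA.1 and at 8.87, 7.73 and 6.76 with siRNA.2. It was 4.25-fold higher with siRNA.1 (log2 2.09, SE 0.09, edgeR adjusted p = 5.04e-117) and 4.14-fold higher with siRNA.2 (log2 2.05, SE 0.09, adjusted p = 9.07e-115). XIAP was at 10.2, 8.80 and 9.37 FPKM with control siRNA, at 5.91, 7.58 and 7.26 with siRNA.1 and at 7.51, 7.27 and 7.12 with siRNA.2, so that all knockdown libraries were below the controls. Its log2 difference was -0.48 (adjusted p = 5.67e-13) and -0.38 (adjusted p = 6.66e-09). BIRC3 was lower by -0.48 and -0.71 on the same scale, and BIRC2 by -0.30 and -0.20, each past the threshold.

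On the platform of CASP8 and CASP10, 1 of 4 genes was higher and 1 lower with siRNA.1, and 2 were higher and 1 lower with siRNA.2. FADD was called higher with siRNA.2 alone (log2 0.19, edgeR adjusted p = 0.0437), and its FPKM overlapped the controls. CFLAR was at 1.81, 1.64 and 1.65 FPKM with control siRNA, at 2.32, 2.36 and 2.48 with siRNA.1 and at 2.74, 2.22 and 2.74 with siRNA.2, which put every knockdown library above the controls. Its log2 difference was 0.46 with siRNA.1 (edgeR adjusted p = 3.73e-09) and 0.59 with siRNA.2 (adjusted p = 8.97e-15). RIPK1, a kinase of the same complexes, was lower by -0.34 (adjusted p = 0.000574) and -0.33 (adjusted p = 0.000905). Of the 2 genes of the CASP2 platform, 1 was lower with siRNA.1 and neither was called with siRNA.2. That 1 was PIDD1 (log2 -0.36, edgeR adjusted p = 0.0148). Its siRNA.1 call was lost in limma with either pseudocount (0.0730 and 0.0629). It was also lost without control replicate 3 (0.0708), siRNA.1 replicate 1 (0.129) or siRNA.1 replicate 3 (0.0596).

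Around CASP1, 5 of 8 inflammasome sensors and adaptors were tested, and AIM2 was the 1 called with either siRNA. AIM2, a sensor of cytosolic DNA, rose from 9.02 ± 0.108 FPKM in the controls by 0.84 on the log2 scale with siRNA.1 (edgeR adjusted p = 1.60e-16) and 0.94 with siRNA.2 (adjusted p = 2.63e-21). PYCARD, the adaptor that links AIM2 to CASP1, had no more than 3 counts in any library. The CASP1 substrate IL18 was at 30.2, 32.7 and 33.4 FPKM with control siRNA, at 19.3, 19.97 and 21.0 with siRNA.1 and at 18.5, 16.3 and 17.5 with siRNA.2, below the controls in all knockdown libraries. Its log2 difference was -0.70 (adjusted p = 1.13e-24) and -0.89 (adjusted p = 6.89e-40). The other CASP1 substrate, IL1B, was called in opposite directions, lower by -0.16 with siRNA.1 (adjusted p = 0.00519) and higher by 0.20 with siRNA.2 (adjusted p = 0.000142). With siRNA.1 the FPKM of IL1B overlapped the controls (53.34 to 53.89 against 53.36 to 64.94). Its siRNA.1 call was lost without control replicate 1 (adjusted p = 0.301). Both calls were lost in limma on log2(FPKM + 0.1) (adjusted p = 0.292 and 0.0838) and on log2(FPKM + 1) (0.252 and 0.0603). GSDME, a gasdermin that forms membrane pores once cut, was lower with both (log2 -0.37 and -0.36), and of all 6 gasdermins and cytokines 3 were lower with siRNA.1 and 2 lower and 1 higher with siRNA.2.

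Of 7 substrates cut in apoptosis, 3 were lower with siRNA.1, and 2 were lower and 1 higher with siRNA.2. LMNA, the lamin cut by CASP6, was lower by -0.23 with siRNA.1 (edgeR adjusted p = 4.60e-08) and -0.32 with siRNA.2 (adjusted p = 3.82e-15). LMNB1, another lamin, was lower by -0.37 with siRNA.1 (adjusted p = 8.41e-12) and higher by 0.12 with siRNA.2 (adjusted p = 0.0426). That LMNB1 call with siRNA.2 was lost in DESeq2 (adjusted p = 0.0851), with DESeq2 size factors in edgeR (0.0632), under filterByExpr (0.0582), without mitochondrially encoded genes (0.0507), with the replicate number as a block (0.0665), in limma (0.205 and 0.166), and without any 1 of 5 libraries: control replicates 1 and 3 (0.0809 and 0.211), siRNA.1 replicate 3 (0.0509) and siRNA.2 replicates 2 and 3 (0.276 and 0.0560). PAK2, a kinase that caspase cleavage activates, had the smallest mean difference of the 12 regulators called in the same direction with both siRNAs, -0.15 with siRNA.1 (adjusted p = 0.00941) and -0.12 with siRNA.2 (adjusted p = 0.0442). The first was lost without siRNA.1 replicate 2 (0.0665), and the second with no filter on low values (0.109), with the replicate number as a block (0.0676) and without control replicates 1 and 3 (0.154 and 0.0814), siRNA.1 replicate 3 (0.0538) or siRNA.2 replicates 1 and 2 (0.149 and 0.116). Both PAK2 calls were lost in limma with either pseudocount (0.138 and 0.108 with siRNA.1, 0.186 and 0.151 with siRNA.2).

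**Figure D4:**
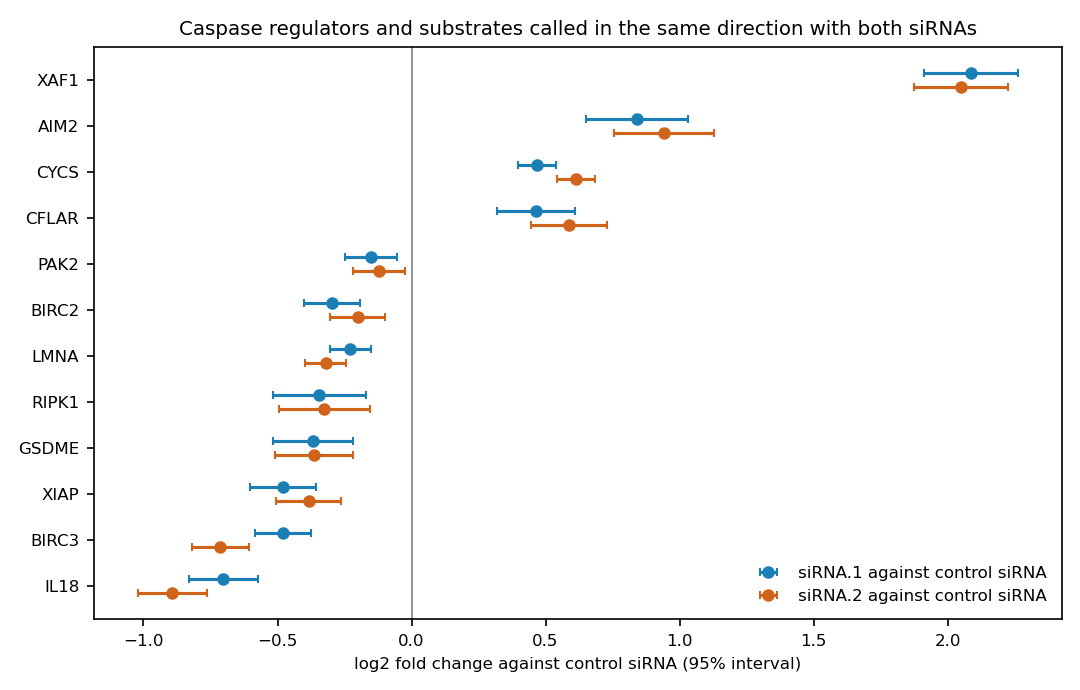
Log2 fold change against control siRNA (horizontal axis, with 95% intervals) of the 12 caspase regulators and substrates (vertical axis) called in the same direction with both siRNAs by edgeR; colors give siRNA.1 and siRNA.2. XAF1 stood at 2.09 and 2.05, apart from the other 11, which lay between -0.89 and 0.94.

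Some of the 8 genes lie next to each other. CASP4 and CASP1 are on the minus strand of chromosome 11 with a gap of 56077 bp, and the gap holds CASP5, an inflammatory caspase with no more than 1 count in any library. Beside CASP1 lies CARD16, whose sequence is close to the start of CASP1. Reads of the pair may have been exchanged, which was not tested. CARD16 was at 2.70, 2.70 and 4.04 FPKM with control siRNA, at 5.57, 4.51 and 4.17 with siRNA.1 and at 3.68, 2.99 and 3.47 with siRNA.2, the opposite direction to CASP1 with siRNA.1. It was called higher with siRNA.1 (log2 0.56, SE 0.18, edgeR adjusted p = 0.00672) and not with siRNA.2 (log2 0.08, adjusted p = 0.795). The siRNA.1 call of CARD16 was lost without control replicate 1 or 2 or siRNA.1 replicate 1 (adjusted p = 0.0590, 0.0627 and 0.104) and in limma on log2(FPKM + 0.1) (0.0623). CASP10 and CASP8 are 4037 bp apart on chromosome 2, with CFLAR beside CASP10. Of these 3 neighbors, CFLAR alone passed the test, as higher.

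Over the 9 libraries, depth-scaled log2 counts (CPM) of CASP9 and CASP6 had a Pearson correlation of 0.90, CASP6 and APAF1 of 0.86, CASP9 and APAF1 of 0.79, and CASP1 and CASP4 of -0.87. These are descriptions over 9 libraries in 3 conditions, which share the differences between conditions given above. Among the up to 11868 genes that reached a mean of 1 FPKM, the profile most like that of each gene was QARS1 for CASP9 (Pearson r 0.987), BMPR2 for APAF1 (0.993), ARHGEF16 for CASP6 (0.985), HMSD for CASP2 (0.930), LSM8 for CASP8 (0.933), MED31 for CASP10 (0.952), CIT for CASP1 (0.976) and PDLIM7 for CASP4 (0.979). The second-ranked genes had r between 0.910 and 0.985. These r were picked as the largest among up to 11868 genes over 9 libraries. Such a choice yields high values by itself, and none of them was tested.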

How the data were processed

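The deposited table held whole-number counts per gene, which the authors made without normalization from poly(A)+ libraries aligned with STAR and counted with featureCounts, and FPKM, which the authors deposited beside them and which could be recomputed from counts, exonic length and library total. Versions and strandedness are not given in the sources used here. All 9 libraries (3 each of control siRNA, siRNA.1 and siRNA.2) were grouped by their labels, and no column of per-library values was left unused. Libraries of 1 condition differed by more than sampling noise. Columns that annotate genes gave coordinates, checked by identifier against GENCODE 44, where 5 of the 8 members had the same start and end.

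Counts were tested with edgeR 4.0.16 (quasi-likelihood F test, TMM factors, R 4.3.3) over 21395 genes whose mean reached 0.1 FPKM, in 1 fit of the 9 libraries, with p-values adjusted by Benjamini-Hochberg and called under 0.05. The common biological coefficient of variation was 0.0566. All 3 pairs of conditions were compared. Alternatives were other size factors, other filters, DESeq2 1.42.0, limma 3.58.1 on log2(FPKM + 0.1) and log2(FPKM + 1), only the groups compared, a replicate block (the replicate number as a term), a fold threshold and each library left out. The procedure was tested on simulated data. In them far fewer genes changed than were called here, and by the same folds with both siRNAs. Error rates for these data do not follow from that test. Likeness used TMM log2 CPM with a prior count of 2.

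The members, gene lists, markers and tests were chosen with earlier results of these data known. By rule, all members are named, with the at most 12 listed regulators of largest mean change called in the same direction with both siRNAs, neighbors of members and the targeted gene. IL1B, LMNB1, CARD16, PYCARD, BIRC5, PIDD1, NLRP1, GSDMB and FADD were named after their values were seen. The text names the first-ranked gene of each likeness. Other caspase genes of the table numbered 5, of which 2 were tested, and these are not reported here apart from CASP5. Intervals are at 95% and p-values measure the spread between these libraries of 1 cell line.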

Additional observations from a re-analysis of the deposited data

Results flagged for a closer look

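The results in this group are genes whose level differed between the 2 siRNAs directed at the same transcript, by edgeR's quasi-likelihood test of that difference. Among the 8 genes it was CASP4, whose log2 difference of siRNA.2 from siRNA.1 was -0.22 (adjusted p = 0.00391), with 3 of 3 siRNA.2 libraries below all 3 siRNA.1 libraries. Among the regulators, CYCS differed by 0.15 (edgeR adjusted p = 0.000898) and BIRC3 by -0.23 (adjusted p = 0.000391), both of which were called in the same direction with either siRNA against control siRNA. BIRC5 differed by 0.24 (edgeR adjusted p = 0.000191) and PIDD1, of the CASP2 platform, by 0.39 (adjusted p = 0.0136). NLRP1, an inflammasome sensor, differed by -0.44 (edgeR adjusted p = 0.0412), GSDMB, a gasdermin, by -0.40 (adjusted p = 0.0454), IL18 by -0.19 (adjusted p = 0.0436) and CARD16 by -0.48 (adjusted p = 0.0442). The smallest adjusted p-values were those of LMNB1, 0.49 (edgeR adjusted p = 3.40e-20), and IL1B, 0.36 (adjusted p = 5.51e-12), the genes called in opposite directions against control siRNA. In limma on log2(FPKM + 0.1) LMNB1 alone of these 11 genes kept an adjusted p under 0.05, with CYCS at 0.221, BIRC3 at 0.121 and IL1B at 0.0663, and on log2(FPKM + 1) LMNB1 and IL1B did, with CYCS at 0.161 and BIRC3 at 0.0873. The counts of LINC00885 were 2 to 5 for siRNA.1 and 0 to 4 for siRNA.2, every siRNA.2 library was deeper than every siRNA.1 library, and their part in these differences was not tested.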

How the results depend on the processing

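Each call on the 8 genes against control siRNA held under other size factors, other filters, DESeq2, limma with either pseudocount the replicate block and fits of only the groups compared, and with each library left out, apart from the losses of CASP6 given with its values. With limma on log2(FPKM + 1) the difference of CASP9 shrank to -0.52 and -0.51, by the construction of the pseudocount. An added fold threshold of 0.5 on the log2 scale left, with siRNA.1, 0 members higher and 1 lower (CASP9) and 3 regulators higher and 1 lower. With siRNA.2 it left 1 member lower, and 5 regulators higher and 2 lower. Between the siRNAs it left 0 members lower and 0 regulators in either direction. Regulators higher with siRNA.2 numbered 5 in limma with either pseudocount against 9. They numbered 7 with DESeq2 size factors in edgeR and 7 without mitochondrially encoded genes. Between the siRNAs, limma called 0 members lower with either pseudocount, 1 and 2 regulators higher and 0 lower, against 5 and 5, and calls of PAK2, IL1B, LMNB1 and CARD16 given above were among those it lost. Regulators lower there numbered 2 under filterByExpr, 1 with no filter and 3 in DESeq2. The causes were not tested.

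With each library left out in turn, members called with siRNA.1 were 1 higher and 3 to 4 lower, and with siRNA.2 0 higher and 3 lower. Between the siRNAs they were 0 higher and 0 to 1 lower, the lowest without siRNA.1 replicate 3. Regulators numbered 4 to 6 higher and 11 to 12 lower with siRNA.1, 7 to 9 and 7 to 8 with siRNA.2, and 4 to 5 and 1 to 5 between the siRNAs, where the lowest count came without siRNA.1 replicate 2 or siRNA.2 replicate 3. Without siRNA.1 replicate 3 it was 3 and without siRNA.2 replicate 2 it was 2. Differences near 0 changed sign. Between the siRNAs, CASP10 was at -8.0e-05 with DESeq2 size factors, at -0.0037 in limma on log2(FPKM + 1), and between -0.34 and 0.49 with libraries left out, and CASP9 was between -0.10 and 0.13. CARD16 with siRNA.2 ranged from -0.019 to 0.31, with -0.015 and -0.019 without control replicate 1 or 2. BIRC5 with siRNA.1 ranged from -0.020 to 0.022 and PIDD1 with siRNA.2 from -0.018 to 0.070, where it was also -0.0065 without control replicate 1. The IL18 difference between the siRNAs was lost without siRNA.1 replicate 2 (adjusted p = 0.0581) or 3 (0.245) or siRNA.2 replicate 2 (0.246) or 3 (0.0971), with only the 2 groups (0.0507), with no filter (0.0751) and in limma (0.191 and 0.146). That of CARD16 was lost under filterByExpr (0.0580), with no filter (0.0828), in DESeq2 (0.0871), in limma (0.246 and 0.194) and without siRNA.1 replicate 1 (0.323) or 2 (0.0550) or any siRNA.2 replicate (0.0556, 0.197 and 0.0881). That of PIDD1 was lost in limma (0.134 and 0.106) and without siRNA.1 replicate 1 (0.138) or 3 (0.0693) or siRNA.2 replicate 2 (0.0974). Those of NLRP1 and GSDMB were lost in DESeq2 (0.0788 and 0.133), with other filters and in limma, and without siRNA.1 replicate 2 (0.394 and 0.190) or siRNA.2 replicate 3 (0.182 and 0.592), NLRP1 also without siRNA.2 replicate 2 (0.107) and GSDMB without siRNA.1 replicate 3 (0.197) and with upper-quartile factors (0.0559).

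Replicate numbers did not pair the libraries: same-numbered libraries of different conditions had correlations of deviations from -0.19 to 0.11 over 11156 genes, against -0.078 to 0.18 for other numbers, and 0 of 9 libraries correlated best with their own number. The replicate block kept the member counts, with 1 higher and 4 lower with siRNA.1 and 3 lower with siRNA.2, and gave 6 higher and 12 lower regulators with siRNA.1 and 7 and 7 with siRNA.2. The block ended the siRNA.2 calls of PAK2 (adjusted p = 0.0676) and LMNB1 (0.0665) and the IL18 difference between the siRNAs (0.0652). Counts of 5 to 23 limit what can be said of CASP10.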
